A study of Mus musculus with 6 samples.

Results

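Genes of DNA replication and mitosis were described in double-positive (DP) thymocytes, immature T cells of the thymus with CD4 and CD8 on their surface. The list held 52 genes, chosen by name for their roles in copying DNA and dividing the cell, and 51 of them had a probe set whose platform gene symbol was exactly that gene. Ccnb1 had no such probe set, so its expression was not analysed here and only its promoter was searched. These 51 stood among 23410 probe sets with at least 1 gene symbol. Where a gene had several probe sets, the brightest over the 6 arrays was used. By role, 24 measured members belonged to S phase (15 to origin licensing and helicase loading, 9 to DNA synthesis and nucleotide supply), 7 were E2F factors and E cyclins, and 20 were mitotic (11 kinases, cyclins and checkpoint genes, 9 spindle, chromosome and cytokinesis genes). There were 6 arrays, 3 of wild-type (WT) cells and 3 of cells labelled Hdac3 knockout (KO). All mice were of the C57BL/6 strain, 3 weeks old and untreated. Hdac3 encodes a histone deacetylase that works within corepressor complexes. The KO line is named LCK:Hdac3 after Lck, a kinase gene of T cells; the sources used here give neither the promoter behind the deletion nor the deleted stretch. By the design record, pools held RNA of 2 mice per genotype, and the 3 arrays of a group are called biological replicates. The record does not state whether each array had its own pool of 2 mice or arrays of a group shared the same mice. P-values therefore cover only the spread among these arrays, which may be technical in part.

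A cell prepares to copy its DNA by loading the ring of MCM proteins onto origins, a step called licensing that needs the origin recognition complex, CDC6 and CDT1. CDC45 and the GINS proteins then turn the ring into a working helicase, and polymerases with the PCNA clamp copy both strands. E2F transcription factors and cyclin E drive entry into S phase. Later, CDK1 with cyclins A and B, the Aurora kinases and PLK1 take the cell through mitosis. In the thymus, division is intense in the cells that have just passed the check on the T cell receptor beta chain, and the cells then become small, resting DP cells. Genes of both phases are in wide use as markers of cycling cells. In bulk RNA, fewer cycling cells and less RNA per cycling cell cannot be told apart.

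The values were the authors' deposited log2 probe set values, and levels are given on that scale throughout. The targeted gene, Hdac3, averaged 9.42 ± 0.02 in WT against 8.31 ± 0.02 in KO (SD, n = 3 each), and every KO array was below every WT array. Of 8 measured DP markers, 7 did not pass the test, among them Cd4, Cd8a and Rag1, and the lipid-presenting Cd1d1 fell by 0.65. Of 6 markers of the preceding double-negative stage, the interleukin-2 receptor gene Il2ra rose by 2.28, the adhesion receptor gene Cd44 fell by 0.66 and 4 did not pass. Of 4 markers of the later single-positive stage, the interleukin-7 receptor gene Il7r fell by 1.19 and 3 did not pass. The part of these stages in the members' values was not tested. Signal was compressed on the KO arrays, with interquartile ranges of 3.06 to 3.25 against 3.29 to 3.49 in WT. In 10 bins of equal size by signal, the median KO minus WT difference ran from -0.17 to 0.16. All 51 members lay above the median signal of the probe sets tested, where the median difference was -0.09. Of 12 neutrophil markers, none passed and all 12 were above WT in their KO mean; their mean log2 level was 4.21 to 4.33 on the WT arrays and 4.37 to 5.82 on the KO arrays, highest on KO array 2. The part of these cells in the members' values was not tested. The members' median difference was -0.03 with KO array 2 and -0.04 without it. KO was above WT for 24 members with that array and for 15 without it. Of all probe sets tested, 1355 passed with it and 474 without it.

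The members moved together from array to array, and the array that stood apart was a WT array. WT array 2 was the highest of the 3 WT arrays for 48 of 51 members (94.1%), against 30.4% of all probe sets tested and 31.0% of those above the median signal. Across members, the median excess of WT array 2 over the mean of WT arrays 1 and 3 was 0.37 on the log2 scale, with a range of -0.05 to 0.70. An excess above 0.3 was measured in 43 of 51 members (84.3%) and in 5.96% of all probe sets above the median signal. The 3 members that peaked on another WT array were E2f1, E2f2 and Gins2, all highest on WT array 3. WT array 2 was also the highest of all 6 arrays for 41 of 51 members, against 16.2% of all probe sets tested and 23.2% of those above the median signal. Members share the same arrays, so these counts are not separate observations.

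The same array was high in genes that were not members. In a further list of 31 measured replication genes, WT array 2 was the highest WT array for 27, and in a list of 40 other mitotic genes for 38. Their median excesses were 0.32 and 0.38. DP markers did not move in that way: WT array 2 was the highest WT array for 0 of 8, with a median excess of -0.04. Of the 6 double-negative stage markers, it was also the highest WT array for 0, and their median excess was -0.25. Lists for single-positive thymocytes, neutrophils, macrophages and dendritic cells, B cells, erythroid cells and thymic epithelium had median excesses of -0.13 to 0.17. What set WT array 2 apart was not tested.

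**Figure D1:**
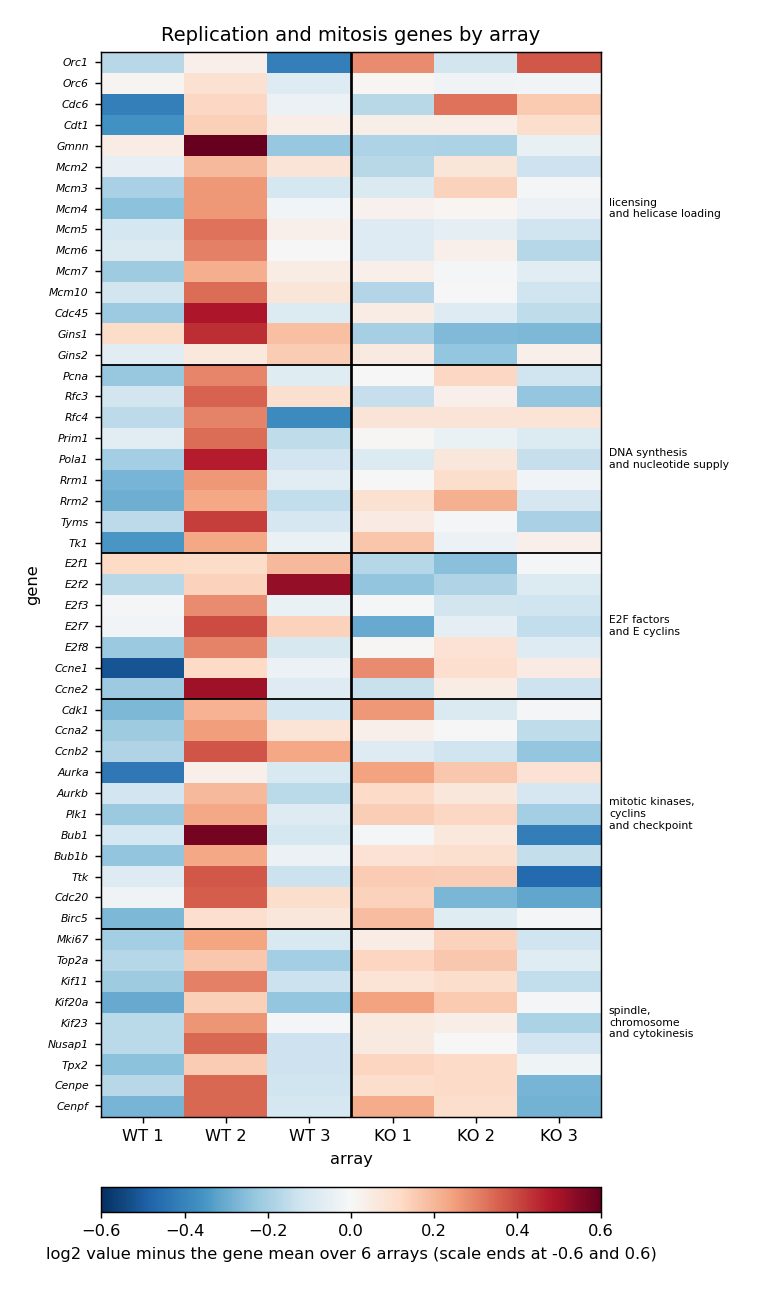
Each row is 1 of the 51 members, each column 1 array, and the colour is the log2 value minus the gene's mean over the 6 arrays; horizontal lines part the roles and the vertical line parts WT from KO. WT array 2 is red in nearly every row, WT array 1 is mostly blue, and no block of rows separates WT from KO throughout.

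The array medians gave the size of this shared movement. For each array, the median over members of the value minus the gene mean was -0.18, 0.26 and -0.08 in WT, in the order of array number, and 0.03, 0.04 and -0.11 in KO. WT array 1 thus lay below and WT array 2 above all KO arrays, and the group means of these medians were 0.00 in WT and -0.01 in KO. Members also varied more within WT than within KO. Their median SD was 0.24 over WT arrays and 0.11 over KO arrays, and 45 of 51 had the larger SD in WT. Over all probe sets above the median signal these SDs were 0.13 and 0.10, and 61.7% had the larger SD in WT.

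Over the 1275 pairs of members the median Pearson correlation was 0.65 across the 6 arrays and 0.79 after each group's mean was removed. These are descriptions over 6 points that share arrays and scaling. Kif11, a motor that pushes spindle poles apart, followed the members' array medians most closely (r = 0.98), with E2f8 (0.98), the spindle protein gene Nusap1 (0.98) and Pcna (0.98). Least alike were E2f1 (r = -0.16), Gins2 (0.06), E2f2 (0.08) and Orc1 (0.15).

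**Figure D2:**
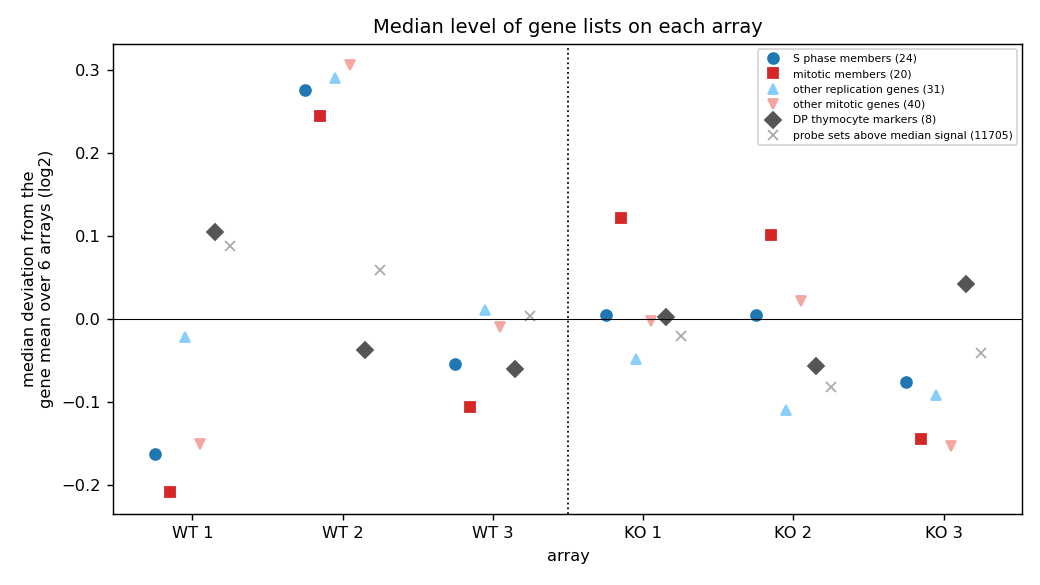
Points give, for each array, the median over a gene list of the log2 value minus the gene's mean over 6 arrays, for S phase and mitotic members, 2 further lists of the pathway, DP markers and all probe sets above the median signal. All 4 replication and mitosis lists peak on WT array 2, between 0.24 and 0.31, where the DP markers lie at -0.04.

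The members' promoters were searched for motifs known from cell cycle genes. Members were chosen by name for such roles, and the motifs were not related to the movement between arrays. RefSeq promoters of mouse assembly GRCm38.p6, from 250 bases before to 50 after a gene's start, were found for 43 of the 52 listed genes, 46 promoters in all. Gins1, Gins2 and Gmnn were among the genes without one. The words searched on both strands were the E2F words TTTCCCGC, TTTGGCGC, TTTCGCGC and TTTGCCGC, the cell cycle homology word TTTGAA, known from genes switched on late in the cycle, and CCAAT, the word of the factor NF-Y. An E2F word was in 9 of 21 S phase promoters (42.9%) and 1 of 17 mitotic promoters (5.88%), against 2.26% of all 32851 promoters. TTTGAA was in 12 of 17 mitotic promoters (70.6%) and 2 of 21 S phase promoters (9.52%), against 17.9% of all. Of 8 promoters of E2F factors and E cyclins, 3 held an E2F word and 3 held TTTGAA. The members' promoters had a median GC content of 57.8%, and among the 19546 promoters with GC above 50% the shares were 3.26% for an E2F word and 10% for TTTGAA, close to its share in S phase promoters. CCAAT was in 16 of 21 S phase and 15 of 17 mitotic promoters, against 37.4% of all and 35.0% of those with GC above 50%. E2F words can overlap each other where they lie on opposite strands, and each match is a run of letters, not a measured binding site.

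The examples show the 150 bases just before the start for a helicase and a clamp loader gene with E2F words, for E2f7, whose groups did not overlap, and for 3 mitotic genes with TTTGAA. Capitals mark the searched words, in either orientation. Counted words that did not lie wholly in this stretch are not marked. These include the E2F word of E2f7 and the CCAAT word of Rfc3, and 1 of the 2 E2F words of Rfc3 is marked.
Mcm6 (chr1:128359706-128359855, minus strand): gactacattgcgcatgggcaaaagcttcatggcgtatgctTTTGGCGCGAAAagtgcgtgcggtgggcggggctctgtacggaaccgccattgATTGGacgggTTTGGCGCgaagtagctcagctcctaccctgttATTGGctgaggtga
Rfc3 (chr5:151651209-151651358, minus strand): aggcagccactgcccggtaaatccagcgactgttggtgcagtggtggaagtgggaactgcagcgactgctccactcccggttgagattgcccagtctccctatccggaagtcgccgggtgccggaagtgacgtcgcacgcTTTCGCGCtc
E2f7 (chr10:110745289-110745438, plus strand): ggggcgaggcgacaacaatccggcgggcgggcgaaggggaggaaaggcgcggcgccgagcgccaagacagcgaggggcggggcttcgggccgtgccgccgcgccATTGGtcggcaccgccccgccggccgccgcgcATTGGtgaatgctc
Cdk1 (chr10:69352913-69353062, minus strand): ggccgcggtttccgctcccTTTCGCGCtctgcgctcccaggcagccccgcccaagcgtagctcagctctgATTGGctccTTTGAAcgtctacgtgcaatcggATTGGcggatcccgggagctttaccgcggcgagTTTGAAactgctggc
Cdc20 (chr4:118437344-118437493, minus strand): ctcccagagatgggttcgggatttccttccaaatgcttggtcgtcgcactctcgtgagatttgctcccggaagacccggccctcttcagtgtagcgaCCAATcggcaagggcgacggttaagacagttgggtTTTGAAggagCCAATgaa
Kif11 (chr19:37376232-37376381, plus strand): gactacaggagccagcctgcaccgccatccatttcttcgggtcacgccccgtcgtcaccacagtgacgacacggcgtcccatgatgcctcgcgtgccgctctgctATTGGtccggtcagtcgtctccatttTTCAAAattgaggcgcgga
Mcm6 thus held 3 E2F words and no TTTGAA in this stretch, with 2 of the E2F words overlapping, while Cdk1 held an E2F word, 2 copies of TTTGAA and 2 of CCAAT. Cdc20 held TTTGAA between its 2 CCAAT words, and Kif11 held TTTGAA on the opposite strand.

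The comparison of KO with WT asked how the loss of Hdac3 went with the level of these genes. Of 51 members, Gins1 fell, none rose and 50 did not pass (limma with Benjamini-Hochberg adjustment over 23410 probe sets, adjusted p under 0.05). That is 1.96% of members, against 5.79% of all probe sets tested, of which 1.75% rose and 4.04% fell. With probe sets below the median signal left out, Gins1 was again the only member that passed, against 15.5% of the 11705 tested. At an unadjusted p under 0.05 there were 5 members (9.80%), against 25.2% of all. The groups did not overlap for 4 members (7.84%), against 30.0% of all: Gins1, E2f1 and E2f7 were lower on every KO array, and Aurka was higher on every KO array. Differences ran from -0.49 to 0.36 on the log2 scale, with a median of -0.03 over members and 0.02 over all probe sets. Standard errors (SE) ran from 0.09 to 0.19, with a median of 0.13, against 0.11 over all probe sets above the median signal. The 95% intervals of all 51 differences lay within a change of 1 in either direction, which is 2-fold.

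Signs were split, and their count moved with the array left out. KO was above WT for 24 of 51 members, and for 36 when WT array 2 was left out. The median difference there was 0.12 and no member passed (limma, adjusted p under 0.05). Leaving out WT array 1 moved the count the other way, to 11, with a median of -0.13. The count was 17 without WT array 3, and 18, 15 and 28 without KO arrays 1, 2 and 3. Among all probe sets above the median signal, as the members were, KO was above WT for 33.2%, and the median difference was -0.09 both with and without WT array 2. Relative to the median of probe sets in the same signal bin, the members' median difference was 0.05. KO was above WT for 32 members after quantile normalization (median 0.03) and for 34 after cyclic loess normalization (median 0.05). With array weights in the fit the count was 13 (median -0.09). These weights, taken from all probe sets tested, ran from 0.56 to 1.67 and were 1.43 for WT array 2. Median centring lowered every difference by the same amount and left 12 above 0.

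**Figure D3:**
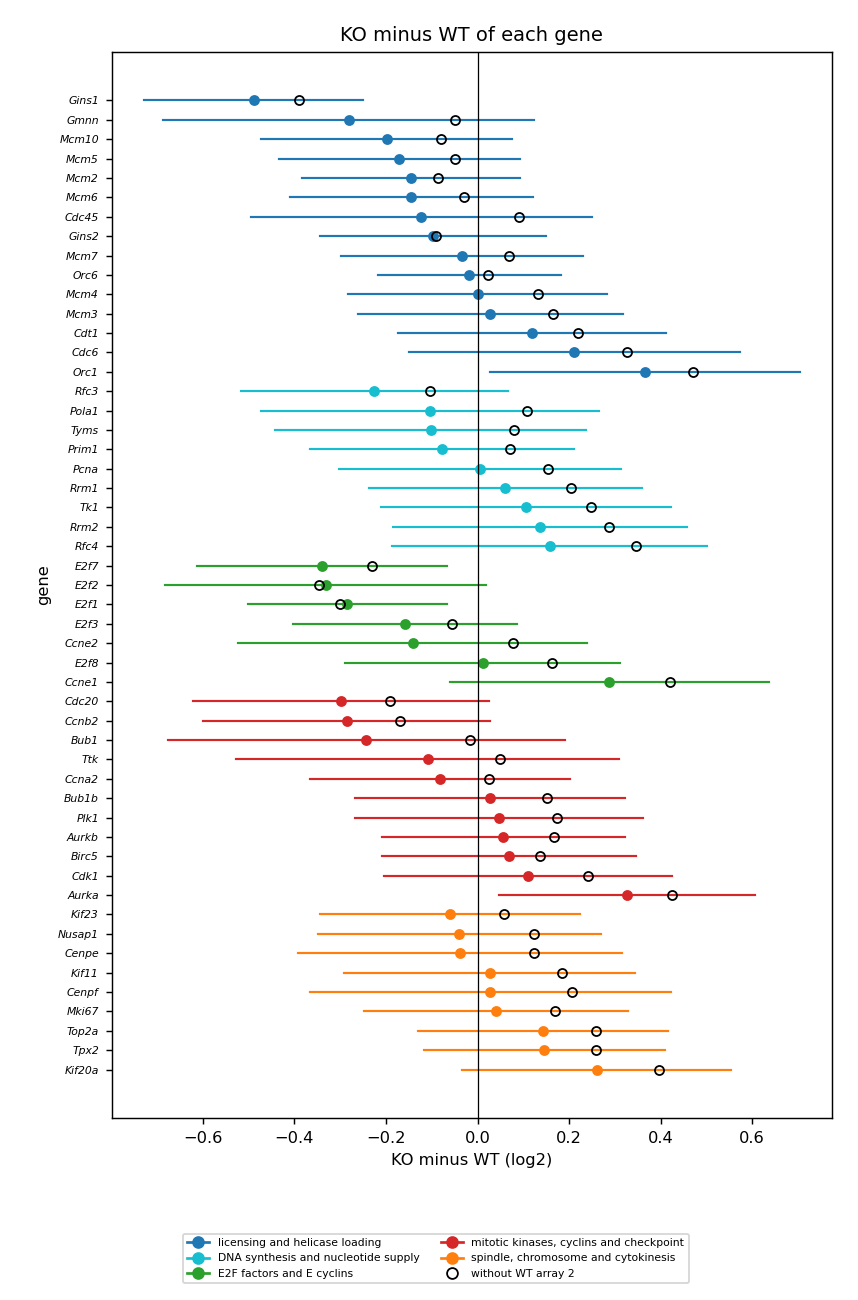
Filled points give KO minus WT on the log2 scale for each member, with bars for the 95% interval, coloured by role; open circles give the difference without WT array 2. All but 5 of the 51 intervals cross 0, and for most genes the open circle lies to the right of the filled point.

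Origin licensing and helicase loading held the member that fell. Gins1, a subunit of the GINS complex of the replicative helicase, had log2 values, in the order of array number as for all genes that follow, of 7.28, 7.61 and 7.35 in WT and of 6.97, 6.91 and 6.90 in KO. Every KO array was below every WT array. The difference was -0.49 (SE 0.11, 95% interval -0.73 to -0.25, limma adjusted p = 0.032). Gins1 kept a negative difference in all 6 fits that left out an array (-0.56 to -0.39), but passed in only 2 of them, those without WT array 1 or WT array 3 (limma adjusted p up to 0.11 in the others). After quantile normalization it was -0.38 and did not pass (limma adjusted p = 0.080). Its partner Gins2 differed by -0.10 (SE 0.11) and did not pass.

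Orc1, the large subunit of the origin recognition complex, pointed the other way. Its values were 6.20, 6.40 and 5.95 in WT and 6.65, 6.26 and 6.74 in KO. The groups overlapped, since KO array 2 lay below WT array 2, and the difference of 0.36 did not pass (SE 0.15, limma adjusted p = 0.17). Orc6 had the smallest residual spread of all members and a difference of -0.02 (SE 0.09).

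The loaders of the MCM ring were uneven. Cdc6 had values of 7.90, 8.43 and 8.27 in WT and 8.14, 8.63 and 8.46 in KO, with a difference of 0.21 that did not pass (SE 0.16, limma adjusted p = 0.43). Gmnn, which encodes geminin, the inhibitor of CDT1, had values of 5.90, 6.47 and 5.63 in WT and 5.67, 5.67 and 5.81 in KO. Its WT range enclosed all KO values, and its difference of -0.28 (SE 0.18) became -0.05 without WT array 2. Cdt1 differed by 0.12 (SE 0.13).

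The 6 genes of the MCM2 to MCM7 ring stayed close together. Their differences ran from -0.17 for Mcm5 to 0.03 for Mcm3, with SEs of 0.11 to 0.13, and none passed. Mcm5 had values of 9.13, 9.56 and 9.26 in WT and 9.15, 9.17 and 9.11 in KO. The KO arrays thus lay within 0.06 of each other while WT array 2 stood above the rest. Mcm2 had values of 9.72, 9.97 and 9.85 in WT and 9.61, 9.85 and 9.65 in KO (difference -0.15, SE 0.11). WT array 2 was the highest of all 6 arrays for each of these 6 genes. Mcm10, which acts when the ring is switched on, had values of 7.68, 8.13 and 7.86 in WT and 7.61, 7.79 and 7.67 in KO (difference -0.20, SE 0.12, limma adjusted p = 0.33). Without WT array 2 its difference was -0.08 and that of Mcm5 -0.05.

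None of the 9 genes of DNA synthesis and nucleotide supply passed, and their median difference was 0.01. Pcna, the sliding clamp, had values of 11.05, 11.57 and 11.20 in WT and 11.28, 11.40 and 11.16 in KO. Its difference of 0.01 had a 95% interval of -0.30 to 0.31, and a further Pcna probe set gave 0.05 (SE 0.12). Rfc3 and Rfc4 encode subunits of the complex that loads this clamp. Rfc3 had values of 7.62, 8.09 and 7.83 in WT and 7.59, 7.76 and 7.50 in KO (difference -0.23, SE 0.13), and Rfc4 values of 9.18, 9.63 and 8.95 in WT and 9.41 on each KO array (difference 0.16, SE 0.15). These partners thus had opposite signs, and neither passed. Rrm2, the regulated subunit of the reductase that makes deoxynucleotides, had values of 9.89, 10.41 and 10.03 in WT and 10.27, 10.39 and 10.08 in KO (difference 0.14, SE 0.14). The thymidylate synthase Tyms, the polymerase subunit Pola1 and the primase Prim1 differed by -0.10, -0.10 and -0.08, and the kinase Tk1 by 0.11. The further Tk1 probe set gave -0.14 (SE 0.15), of opposite sign. For all 9, WT array 2 was the highest of the 6 arrays.

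None of the 5 E2F factors passed. The differences of 4 were between -0.34 and -0.16, and that of E2f8 was 0.01, where the median differences of their signal bins were -0.17 to -0.04. E2f1, an activator of S phase genes, had values of 7.35, 7.34 and 7.42 in WT and 7.06, 6.98 and 7.22 in KO. Every KO array was below every WT array, and WT array 2 did not stand out. Its difference was -0.28 (SE 0.10, limma adjusted p = 0.11), and -0.30 without WT array 2. E2f2 had values of 9.50, 9.80 and 10.19 in WT and 9.43, 9.48 and 9.58 in KO (difference -0.33, SE 0.16, limma adjusted p = 0.22). WT array 1 lay within the KO range, and WT array 3 was the highest. E2f3, the remaining activator of the list, differed by -0.16 (SE 0.11), and its further probe set by -0.07 (SE 0.13).

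The repressors and cyclins of this role were mixed. E2f7, a repressor that limits E2F targets, had values of 7.40, 7.81 and 7.55 in WT and 7.12, 7.36 and 7.27 in KO. The groups did not overlap, and the difference was -0.34 (SE 0.12, limma adjusted p = 0.125), or -0.23 without WT array 2. E2f1 and E2f7 passed only after median centring, which lowered all differences (-0.39 and -0.44, limma adjusted p = 0.049 and 0.044). The related E2f8 had an SE of 0.13. Ccne1, cyclin E1, had values of 8.72, 9.35 and 9.20 in WT and 9.51, 9.34 and 9.28 in KO, with 2 KO arrays below the highest WT array (difference 0.29, SE 0.16, limma adjusted p = 0.28). Without WT array 1, the lowest, its difference was 0.10. Ccne2 had values of 7.80, 8.53 and 7.94 in WT and 7.89, 8.07 and 7.90 in KO, and was among the 5 members with the largest residual spread (difference -0.14, SE 0.17).

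**Figure D4:**
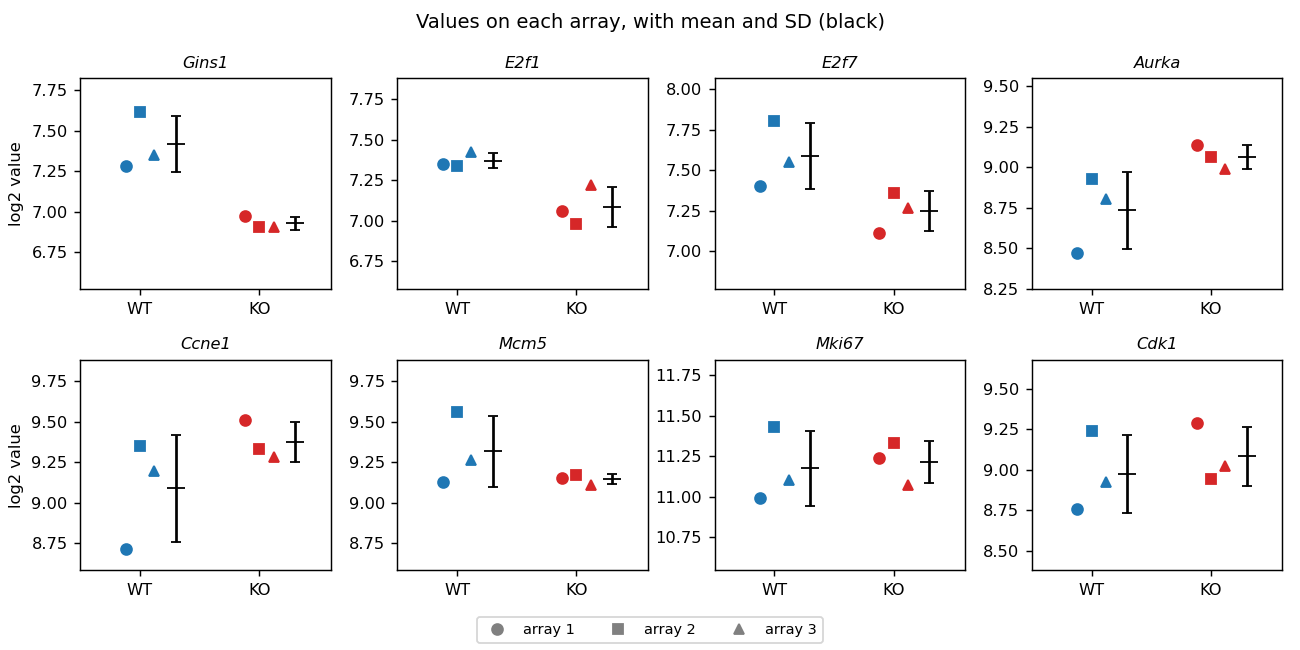
Points give the log2 value on each array for 8 members, with marker shape for the array number and black bars for the mean and SD of the 3 arrays; each panel spans the same range of 1.3 log2 units. Gins1, E2f1, E2f7 and Aurka show no overlap between the groups, and WT array 2 is the highest of all 6 arrays for Gins1, E2f7, Mcm5 and Mki67.

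Among mitotic kinases, cyclins and checkpoint genes none of 11 passed. Aurka, the Aurora kinase of the spindle poles, had values of 8.47, 8.93 and 8.80 in WT and 9.14, 9.06 and 8.99 in KO. Each KO array was above each WT array, and the difference was 0.33 (SE 0.12, 95% interval 0.05 to 0.61, limma adjusted p = 0.14). Without WT array 2 it was 0.42, the largest of the 6 fits that left out an array, and the smallest was 0.19. Aurkb, the Aurora kinase of the centromere, differed by 0.06 (SE 0.12) and Plk1 by 0.05 (SE 0.14).

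Cdk1, the main mitotic kinase, had values of 8.76, 9.24 and 8.92 in WT and 9.29, 8.94 and 9.02 in KO. Its WT and KO arrays were interleaved, with a difference of 0.11 (SE 0.14). Of its cyclin partners, Ccnb2 had values of 10.27, 10.83 and 10.69 in WT and 10.38, 10.34 and 10.22 in KO (difference -0.29, SE 0.14, limma adjusted p = 0.24), and Ccna2 differed by -0.08 (SE 0.13). Cdc20, which activates the ligase that ends mitosis, had values of 8.69, 9.07 and 8.82 in WT and 8.85, 8.44 and 8.40 in KO. KO array 1 lay among the WT arrays, and its difference of -0.30 did not pass (SE 0.14, limma adjusted p = 0.23).

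The spindle checkpoint kinases Bub1 and Ttk had the largest SEs of all members. Bub1 had values of 8.69, 9.37 and 8.69 in WT and 8.78, 8.85 and 8.38 in KO (difference -0.24, SE 0.19), and without WT array 2 the difference was -0.02. Ttk had values of 7.53, 7.98 and 7.48 in WT and 7.76, 7.75 and 7.14 in KO (difference -0.11, SE 0.19). Both were highest on WT array 2 and lowest on KO array 3. Bub1b differed by 0.03 (SE 0.13) and Birc5, which encodes the centromere protein survivin, by 0.07 (SE 0.12).

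The 9 spindle, chromosome and cytokinesis genes differed by -0.06 to 0.26, and none passed. Mki67, the proliferation antigen Ki-67, had values of 10.99, 11.43 and 11.10 in WT and 11.24, 11.34 and 11.08 in KO. Its difference of 0.04 had a 95% interval of -0.25 to 0.33. Top2a, the topoisomerase that untangles chromosomes, had values of 11.23, 11.56 and 11.19 in WT and 11.53, 11.56 and 11.32 in KO (difference 0.14, SE 0.12). A further, dimmer Top2a probe set gave 0.04 with an SE of 0.30.

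Kif20a, a motor of cytokinesis, had values of 8.44, 8.89 and 8.51 in WT and 8.99, 8.90 and 8.74 in KO. A single KO array lay below WT array 2, and the difference was 0.26 (SE 0.13, limma adjusted p = 0.25), or 0.40 without WT array 2. Tpx2, the activator of Aurora A, had values of 9.30, 9.69 and 9.42 in WT and 9.67, 9.66 and 9.51 in KO (difference 0.15, SE 0.12). Cenpf, a kinetochore protein gene, had values of 8.78, 9.40 and 8.96 in WT and 9.28, 9.17 and 8.78 in KO (difference 0.03, SE 0.18). All 9 were positive without WT array 2, from a median of 0.03 with it to 0.18 without it, and none passed there either. That fit gave the largest differences. With each array left out in turn, they ran from -0.05 to 0.17 for Mki67 and from 0.08 to 0.26 for Top2a. The ranges were 0.17 to 0.40 for Kif20a, 0.06 to 0.26 for Tpx2 and -0.10 to 0.21 for Cenpf.

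S phase members were set against mitotic members. The median difference was -0.06 over 24 S phase members and 0.03 over 20 mitotic members, and KO was above WT for 10 of 24 and 12 of 20. The gap between these medians was -0.08. By array, the S phase median minus the mitotic median was 0.05, 0.03 and 0.05 in WT, in the order of array number, and -0.12, -0.10 and 0.07 in KO. KO arrays 1 and 2 thus lay below all WT arrays and KO array 3 above them. The SD of these array values was 0.01 in WT and 0.10 in KO (pooled SD 0.07). Without KO array 3 the gap was -0.13, and without KO array 2 it was -0.03. After quantile normalization the array values were 0.01, 0.02 and 0.06 in WT and -0.11, -0.06 and 0.08 in KO, and the gap between the median differences was -0.04. KO array 3 was the lowest KO array for 18 of 20 mitotic members and 13 of 24 S phase members, against 31.9% of all probe sets tested.

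Other genes of the pathway gave 1 call in each list, against 5.79% of all probe sets tested called and 4.04% called lower. Of 31 other replication genes, Rpa3, a subunit of the protein that coats single-stranded DNA, fell, none rose and 30 did not pass. Rpa3 had values of 7.75, 7.82 and 7.42 in WT and 7.01, 6.85 and 6.89 in KO, so that every KO array was below every WT array. Its difference was -0.75 (SE 0.12, limma adjusted p = 0.0093), it passed in all 6 fits that left out an array, and it was -0.41 and did not pass with the mean of its probe sets (limma adjusted p = 0.077). Its partner Rpa2 and the polymerase subunit Pola2 differed by -0.35 and -0.33 and did not pass (limma adjusted p = 0.072 and 0.083).

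Of 40 other mitotic genes, Melk, a kinase gene of dividing cells, fell, none rose and 39 did not pass. Melk had values of 7.45, 8.08 and 7.67 in WT and 6.98, 6.998 and 6.80 in KO, again without overlap (difference -0.81, SE 0.15, limma adjusted p = 0.018). It did not pass without KO array 2 or KO array 3 (-0.84 and -0.74, limma adjusted p = 0.051 and 0.075), nor after signal-level centring (-0.66, limma adjusted p = 0.054). Spc24, of the outer kinetochore, and the phosphatase Cdc25c differed by -0.43 and -0.38 (limma adjusted p = 0.069 and 0.063). The median difference was -0.18 over the replication list and -0.10 over the mitotic list. Without WT array 2 these medians were -0.07 and 0.02.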

How the data were processed

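Labelled sense-strand target from total RNA was hybridised to Affymetrix arrays that probe whole transcripts (labels' protocols). The authors deposited 1 value per probe set and array, taken as log2 from its range, and the sources used here do not state how background, normalization or probe summary were handled. The platform annotation paired 21789 of 28853 probe sets with 1 gene symbol, 1621 with several and 5443 with none. The 23410 with a symbol were tested with limma 3.58.1 in R 4.3.3 (lmFit, eBayes, 2 group means, KO minus WT, two-sided, Benjamini-Hochberg, threshold 0.05). The fit was run on simulated data with independent noise for each probe set. That simulation held no movement shared between genes, so it does not cover the shared movement of the members. No exact permutation test was run, since with 3 arrays a group its smallest p is 0.1.

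Genes given with the value on each array were the called members, the 3 with the smallest p in each role, the 5 with the largest residual SD, and Mki67, Top2a, Cdk1, Ccnb1 (expression not analysed here), Mcm2, Mcm5, Pcna, Cdc6, E2f1, E2f2, Ccne1 and Gmnn. Other list genes were named by smallest p, at most 3 a list. Members and lists were chosen with earlier results of these data known. The number of arrays limits the precision. Alternatives were quantile, median and cyclic loess scaling, a filter on dim probe sets, an intensity trend, array weights, a replicate block, other choices of probe set and each array left out; signal-level centring in 10 bins and quantile normalization without WT array 2 were chosen after seeing the data. Same-numbered WT and KO arrays were not treated as pairs.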

Additional observations from a re-analysis of the deposited data

How the results depend on the processing

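The count of called members was 1 of 51, and Gins1 was that member wherever a single call was made. The count was 0 after quantile normalization, cyclic loess normalization, signal-level centring in 10 bins, and quantile normalization with WT array 2 left out, and 3 after median centring, under which the overall median shifted from 0.02 to -0.08. With an array left out it ranged from 0 to 1. Over all probe sets the count was 1355, with 2060 after median centring, 2285 with array weights, 453 after quantile normalization with WT array 2 left out, and 474 to 1946 with an array left out: 517, 505 and 1946 without WT arrays 1, 2 and 3, and 826, 474 and 489 without KO arrays 1, 2 and 3. Higher calls were 30.2% of these 1355, 9.56% after median centring and 41.4% with both quantile normalization and a filter on dim probe sets. The members' median difference was 0.19 and the S phase median 0.19 after quantile normalization with WT array 2 left out, a setting chosen after that array was seen to stand apart. With an array left out, the medians ran from -0.13 to 0.12 over members, -0.14 to 0.08 over S phase members and -0.08 to 0.16 over mitotic members. The gap between S phase and mitotic medians was negative under all alternatives run, between -0.13 and -0.02. Whether replicate numbers pair the arrays is not stated in the labels. Same-numbered WT and KO arrays had correlations of deviations of 0.25, -0.07 and -0.03, and other WT and KO arrays of -0.34 to 0.32. Deviations from a mean of 3 arrays are tied to each other, so these values cannot settle the question. With the replicate block 1162 probe sets and 1 member were called. The cause of these changes was not tested.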
